A study of Danio rerio with 24 samples.

Results

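Fast myosin heavy chain genes were followed across skeletal muscle libraries of adult zebrafish. They were chosen by 7 gene names in the authors' tables: myhc4, myha, myhb, myhz1.1, myhz1.2, myhz1.3 and myhz2. These names matched 8 of the 31953 Ensembl gene IDs in the count table, because myhz1.1 names 2 of them. The reference gene name table calls the second of these (ENSDARG00000102414) myhz1.1l, and that name is used here to keep it apart from myhz1.1 (ENSDARG00000067990). All 8 passed the filter on low counts. There were 3 groups, all of fish 4 months old. Wild-type fish were either left without training (untrained_WT) or put through chronic exercise (trained_WT), and fish of the genotype actc1b:PGC1alpha had no training (untrained_TG). The coactivator PGC1alpha raises the expression of mitochondrial genes, and the transgene is named after actc1b, an actin gene of muscle. The labels give neither the species of PGC1alpha, nor the number of founder lines, nor the training schedule, and do not say whether a sample was 1 fish. Of 8 labelled samples per group, 7 had a column in the count table and were analysed.

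Myosin heavy chain is the motor protein of the thick filament. Its head binds actin and hydrolyses ATP, and its long tail packs with other tails into the filament. Vertebrates carry several sarcomeric myosin heavy chain genes, which differ in the speed of the motor, and the set that a fibre uses is the classical mark of its type. In fish, most of the trunk muscle is fast, glycolytic white muscle, with slow, oxidative fibres in a superficial layer. Fish genomes hold fast myosin heavy chain genes in tandem arrays. Neighbours were taken among protein-coding genes of the zebrafish reference gene table of another build (GRCz12tu), so genes of other kinds may lie between. There, 6 of the genes are direct neighbours in the order myhz2, myhc4, myha, myhz1.3, myhz1.2 and myhz1.1. The genes myhb and myhz1.1l are direct neighbours neither of these 6 nor of each other, and their distance from them was not examined. Below, the array means this run of 6 genes. No coordinates are given, since the counts were made on GRCz10.

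Libraries held 42808402 to 79184764 gene counts, the lowest being untrained_TG replicate 7. Levels are CPM, counts per 1000000 of the TMM-scaled library size, which sets the bulk of genes equal between libraries. Counts are not corrected for transcript length, so a share of counts is a share of reads and not of molecules. Fast fibre markers summed to 22545 to 78911 CPM in untrained_WT and 7504 to 14116 CPM in untrained_TG. Of these 10 markers, edgeR called 8 lower and 1 higher in untrained_TG, against 25.1% of all tested genes called lower and 18.3% higher. Slow fibre markers summed to 2882 to 6309 CPM in untrained_WT and 22493 to 36880 CPM in untrained_TG, so muscle genes were abundant in every library. Of the 10 cardiac markers, nppa was at 0 counts in all libraries and myl7 reached at most 0.0274 CPM. Others were present: vmhc and tnni1b, the latter also listed as a slow fibre marker, had counts in every library. For vmhc the range was 9.56 to 53.8 CPM in untrained_WT and 3.14 to 26.4 CPM in untrained_TG. The cardiac list summed to 15.1 to 59.1 CPM in untrained_WT and 5.91 to 32.4 CPM in untrained_TG. Zebrafish ppargc1a was at 28.1 CPM in untrained_WT, 24.4 in trained_WT and 16.8 in untrained_TG, with an edgeR adjusted p of 0.168 for untrained_TG against untrained_WT. This count need not include the transgene, so it does not check the genotype labels. Summed germ-line markers ranged from 4.76 to 119 CPM in untrained_WT, highest in replicates 3 and 7, and from 1.34 to 8.65 CPM in untrained_TG.

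The comparison of untrained_TG with untrained_WT asks what the transgene does without training. Transgenic muscle had far fewer reads of myhc4, the fast myosin gene that dominated wild-type counts, at 1009 to 8679 counts per library. What was left of the family's counts came nearly all from a single other gene. Of the 8 members, 7 were lower and none higher, against 25.1% of all 18947 tested genes called lower, 18.3% called higher and 43.4% called in either direction. Their median log2 fold change was -5.84, beside -0.13 over all genes. Of the 7, myhz1.3, myhz1.1 and myhz1.2 had medians of 4, 4 and 1 counts per untrained_TG library. These genes passed the filter on low counts only through the wild-type libraries, so a call other than lower was hardly open to them. The member that was not called was myhb, which lies outside the array. In bulk tissue, fewer fast fibres and less myosin RNA per fibre cannot be told apart.

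The gene myhc4 ranged from 17767 to 124329 CPM in untrained_WT, with a median of 63915. In untrained_TG it ranged from 17.9 to 212 CPM, with a median of 23.6. Every transgenic library lay below every wild-type one, and replicate 7 stood above the other transgenic libraries, whose highest value was 31.7. For this gene and those below, the share of all genes that separate the groups so fully was not counted. The log2 fold change was -10.25 ± 0.76 (SE, n = 7 per group, edgeR adjusted p = 6.95e-10), a 1219-fold lower level. Leaving out untrained_TG replicate 7 gave -11.37, a change of over 1.5 times in the fold.

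The gene myha, the next in the array, fell by a similar fold in the fit. It ranged from 15.3 to 2822 CPM in untrained_WT (median 739) and from 0.461 to 1.34 CPM in untrained_TG (median 0.515), with no overlap. Its log2 fold change was -10.21 ± 1.22 (edgeR adjusted p = 6.26e-07). Without untrained_WT replicate 5, the library with the highest level, it was -9.54.

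The array genes myhz1.3, myhz1.1 and myhz1.2 had lower median levels than myhc4 and myha in every group. In untrained_WT, myhz1.3 ranged from 2.49 to 51.3 CPM (median 5.79), myhz1.1 from 1.12 to 26.7 CPM (median 4.25) and myhz1.2 from 0.583 to 16.3 CPM (median 2.58). In untrained_TG their medians were 0.0604, 0.0709 and 0.0244 CPM, and for each of the 3 all transgenic libraries lay below all untrained_WT ones. Their log2 fold changes were -6.29 ± 0.90, -5.39 ± 0.76 and -6.74 ± 0.78 (edgeR adjusted p at most 6.89e-06). The transgenic values rest on few reads: myhz1.2 had 17 counts over all 7 libraries and 0 in 3 of them, and myhz1.1 had 63 counts and 0 in 1. For myhz1.3 there were 77 counts, with a median of 4 and a highest value of 39 per library. A library with 0 counts allows a level of up to 0.0453 to 0.0532 CPM (3 counts). At such levels the fitted fold depends on the prior count, and single libraries moved it. Without untrained_WT replicate 8, myhz1.1 was at -4.41 and myhz1.2 at -5.93. Without untrained_TG replicate 4, which held 12 of the 17 counts, myhz1.2 was at -8.07. Without untrained_WT replicate 5, myhz1.3 was at -5.65, and without untrained_TG replicate 1 at -7.03.

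At the other end of the array, myhz2 fell less uniformly. It ranged from 10.8 to 262 CPM in untrained_WT (median 53.7) and from 0.652 to 42.9 CPM in untrained_TG (median 1.24). The groups overlapped: 5 transgenic libraries held at most 1.46 CPM, while replicate 1 held 42.9 and replicate 7 held 27.4. Its log2 fold change was -3.23 ± 0.96 (edgeR adjusted p = 0.0093), and -4.19 without replicate 1.

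**Figure D1:**
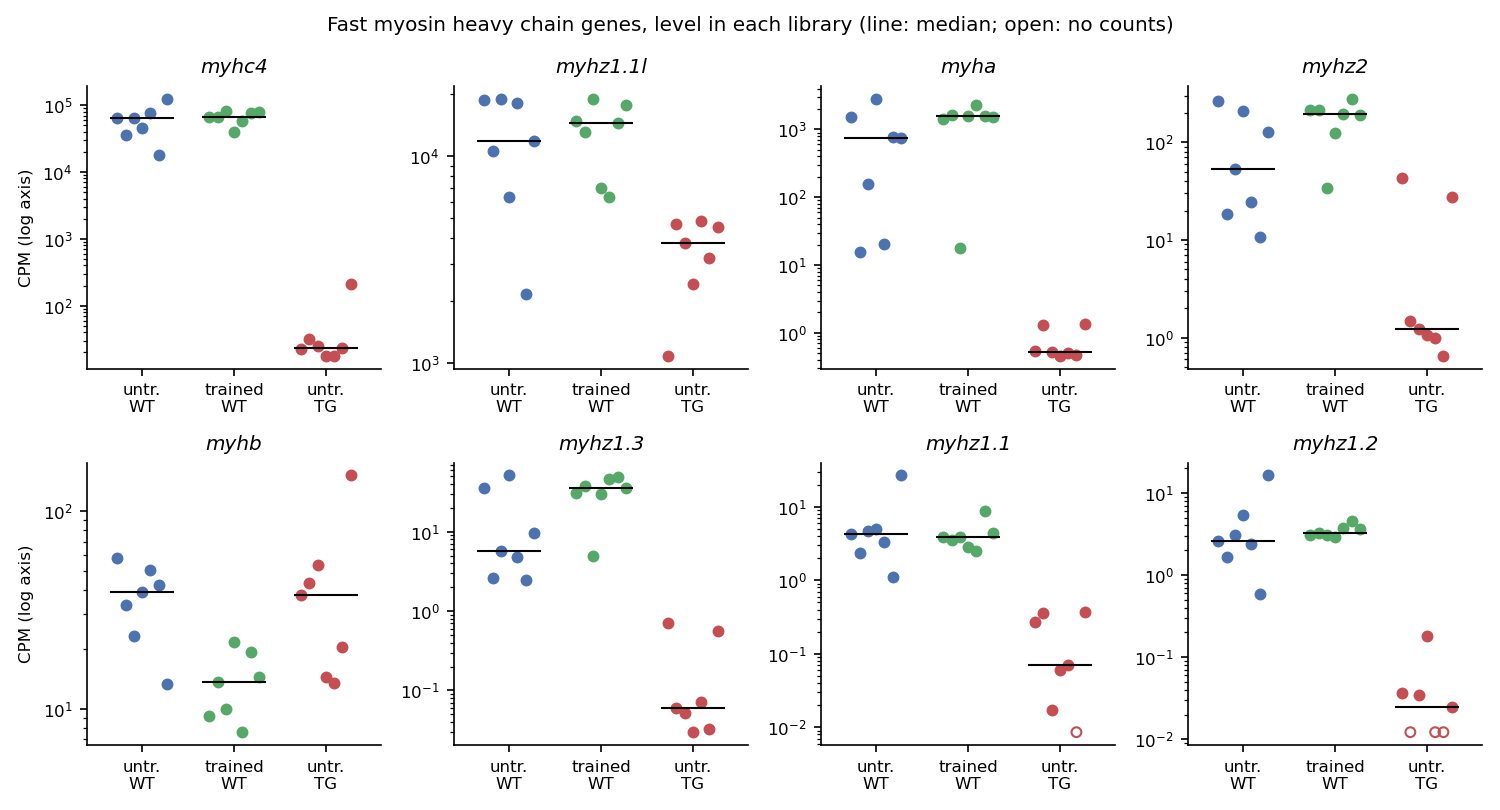
CPM of each fast myosin heavy chain gene in each library, on a log axis with its own range in each panel; points are libraries in replicate order, horizontal lines are medians and open circles are libraries with no counts. All transgenic libraries lie below all untrained wild-type ones for myhc4, myha, myhz1.3, myhz1.1 and myhz1.2, and the groups overlap for myhz1.1l, myhz2 and myhb. The share of all genes that separate so fully was not counted.

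Of the genes outside the array, myhz1.1l fell less far and myhb was not called. Between untrained_WT and untrained_TG, myhz1.1l went from a range of 2160 to 18872 CPM (median 11861) to one of 1083 to 4878 CPM (median 3785). Only untrained_WT replicate 7 reached down into the transgenic range, and only untrained_TG replicate 1 lay below it. The log2 fold change was -1.81 ± 0.40 (edgeR adjusted p = 0.000891), a 3.51-fold lower level. The gene myhb ranged from 13.3 to 57.9 CPM in untrained_WT (median 38.8) and from 13.5 to 151 CPM in untrained_TG (median 37.5). Apart from the 151 CPM of replicate 7, the transgenic values of myhb lay within the wild-type range. Its log2 fold change was 0.36 ± 0.44 (edgeR adjusted p = 0.534), and without untrained_TG replicate 7 it was -0.29.

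These results did not rest on the untrained_WT libraries with the most germ-line RNA. Without replicates 3 and 7, myhc4 was at -10.53, myha at -10.46, myhz1.1l at -2.06 and myhz2 at -3.63, and the same 7 members were called. For the 7 called members, the authors' deposited table gave log2 fold changes of smaller size in this comparison. Among them were -8.13 for myhc4, -6.71 for myha and -1.68 for myhz1.1l. The value for myhb was 0.38 there, beside 0.36 here, and signs were the same for all 8 members.

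**Figure D2:**
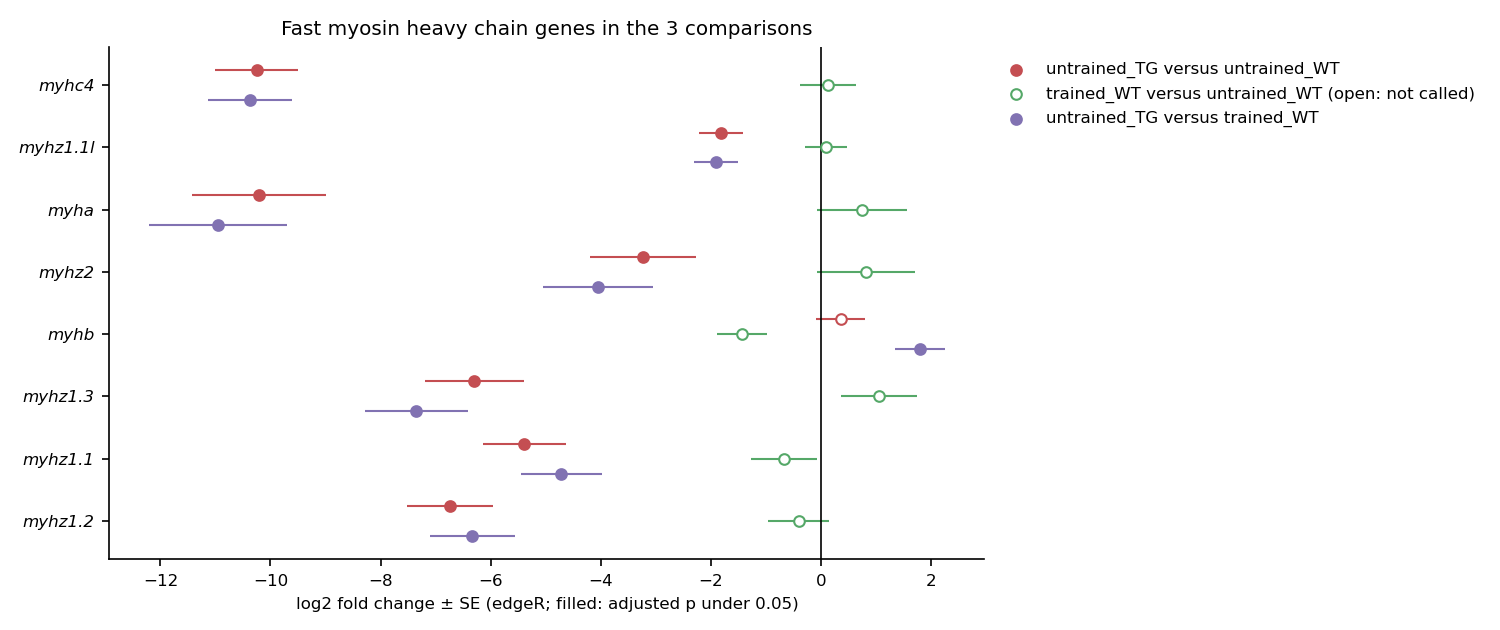
Log2 fold change with its standard error (horizontal bars) for each gene in the 3 comparisons, from 1 edgeR fit over all genes; filled points have an adjusted p under 0.05 and open points do not. In both comparisons with untrained_TG, myhc4 and myha lie between -10.21 and -10.95, myhz1.1l at -1.81 and -1.90 and myhb at 0.36 and 1.80.

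The make-up of the family's counts was turned over. Fast myosin genes together took 8.03% ± 2.65 of all gene counts in untrained_WT (SD, n = 7), 7.94% ± 1.44 in trained_WT and 0.313% ± 0.131 in untrained_TG. Mitochondrially encoded genes, here and below the 13 genes whose names begin with mt-, took 46.8% of gene counts in untrained_TG and 10.5% in untrained_WT. With these 13 left out of the total, the family still took 0.590% against 8.94%. Any mitochondrially encoded genes under other names stayed in the total. In untrained_WT, myhc4 supplied 75.7 to 90.7% of fast myosin counts (median 80.7%) and myhz1.1l 8.65 to 23.1% (median 19.2%). In untrained_TG, myhc4 supplied 0.364 to 4.27% (median 0.722%) and myhz1.1l 91.2 to 99.3% (median 98.4%). Neither pair of ranges overlapped.

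Each member's share of fast myosin counts was compared between groups with an exact two-sided permutation test, 24 tests in all, for which the smallest p that 7 against 7 allows is 0.000583. Shares of 1 total are not independent of each other. Relative to untrained_WT, the share of myhc4 fell by 80.0 percentage points and that of myhz1.1l rose by 79.8 (exact permutation p = 0.000583, adjusted over the 24 tests 0.00233 for each). The share of myhb rose from 0.0724% ± 0.0630 to 1.42% ± 1.19 (exact permutation p = 0.000583, adjusted p = 0.00233), although its level was not called. The share of myha fell by 1.60 points (exact permutation p = 0.00641, adjusted p = 0.0192). Its shares overlapped between the groups, with 4 of the 7 transgenic libraries below all untrained_WT ones. Shares of myhz2, myhz1.3, myhz1.1 and myhz1.2 did not pass the test, with adjusted p from 0.14 to 0.791 by exact permutation. Several of these calls depended on myhc4 being in the total. With it taken out, the rise of myhz1.1l was 9.24 points (adjusted p = 0.151 by exact permutation) and that of myhb 1.04 points (adjusted p = 0.0948), so neither was called. In that total the shares of myha, myhz1.3, myhz1.1 and myhz1.2 fell, with adjusted p of 0.00245, 0.0245, 0.00612 and 0.00245 by exact permutation. On a logit scale with myhc4 in the total, the lower share of myhz1.2 also passed (adjusted p = 0.0373 by exact permutation). The widest 95% Wilson interval of a library's share, which covers counting error only, spanned 0.434 percentage points for myhz1.1l and 0.210 for myhc4, far less than their differences. For myhz1.3, myhz1.1 and myhz1.2 the widest intervals in untrained_TG, all in replicate 1, spanned 0.0379, 0.0239 and 0.0103 points. For myhz1.3 the next widest, 0.00945 points in replicate 7, was narrower than the size of its difference from untrained_WT, -0.0135 points. For myhz1.2, with a difference of -0.00362 points, only replicates 1 and 4 had wider intervals. For myhz1.1 even the narrowest interval, 0.00191 points in replicate 6, was wider than its difference of -0.00157 points.

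**Figure D3:**
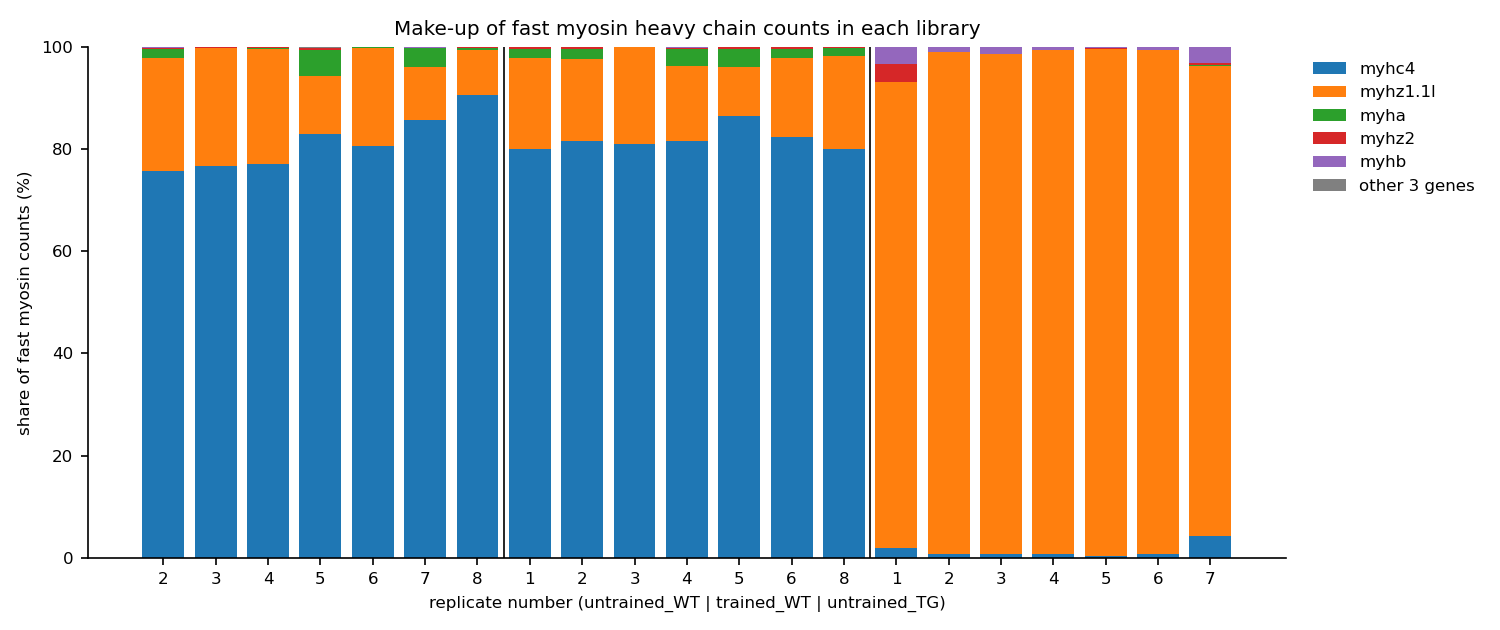
Share of fast myosin heavy chain counts that came from each gene, in percent, as stacked bars for the 21 libraries; grey is the sum of myhz1.1, myhz1.2 and myhz1.3, and vertical lines part untrained_WT, trained_WT and untrained_TG. In the 14 wild-type libraries myhc4 fills 75.7 to 90.7% of the bar, and in the transgenic ones myhz1.1l fills 91.2 to 99.3%.

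Close paralogs limit how far these counts separate the genes. Reads with more than 1 alignment were set aside in the count table, and they came to 5954954 to 9208078 per untrained_WT library, 7343095 to 9870816 per trained_WT library and 3150122 to 6553620 per untrained_TG library. Relative to the fast myosin counts of the same library they were 0.965 to 2.02 times as many in untrained_WT and 15.5 to 98.9 times as many in untrained_TG. Which genes these reads came from is not recorded, so how many belong to the array was not tested. In wild-type libraries myhz1.1 had 43.7 to 215 counts, and myhz1.2 31.5 to 131 counts, per 1000000 counts of myhc4. In untrained_TG, where both genes had few counts, the same ratios ran from 0 to 12039 and from 0 to 9926. Both low genes were highest in untrained_WT replicate 8, the library with the highest myhc4. Over the 14 wild-type libraries, Pearson's r of log2 CPM with myhc4, group means removed, was 0.82 for myhz1.1 and 0.79 for myhz1.2. For myhz1.1l it was also 0.79, and for the remaining members it ran from -0.41 (myhb) to 0.46 (myhz2). Between myhz1.1 and myhz1.2 it was 0.93. Whether reads of myhc4 were assigned to myhz1.1 and myhz1.2 was not tested.

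Training was compared with no training in wild-type fish. No fast myosin gene was called by edgeR (0 of 8), against 2.95% of all genes in either direction, 2.25% higher and 0.702% lower, and 1 of the 8, myhb, had an unadjusted p under 0.05. DESeq2 called 1 and limma 0. The members' median log2 fold change was 0.11, beside -0.07 over all genes. In trained_WT, myhc4 ranged from 39195 to 80989 CPM (median 67306), within the untrained_WT range, with a log2 fold change of 0.12 ± 0.51. The range of myhz1.1l in trained_WT was 6328 to 18961 CPM (median 14492), with a log2 fold change of 0.09 ± 0.39. Errors were wide for the other members of the array. In trained_WT, myha ranged from 17.8 to 2303 CPM (median 1585), myhz2 from 34.0 to 279 (median 195) and myhz1.3 from 5.01 to 48.7 (median 35.9). Each of these medians lay above that of untrained_WT, but the ranges overlapped, and the log2 fold changes were 0.74 ± 0.82, 0.82 ± 0.88 and 1.06 ± 0.68. Without untrained_WT replicate 5, myha was at 1.44 and myhz1.3 at 1.74, neither of them called. Those of myhz1.1 and myhz1.2 were -0.67 ± 0.60 and -0.40 ± 0.56, and without untrained_WT replicate 8 they were 0.30 and 0.41.

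The gene myhb was the one that came nearest to a call after training. It ranged from 7.62 to 21.7 CPM in trained_WT (median 13.7), and 3 of the 7 trained libraries lay below all untrained_WT ones. The log2 fold change was -1.44 ± 0.45 (edgeR adjusted p = 0.0847). The adjusted p was 0.0184 with DESeq2, 0.0235 with only these 2 groups in the edgeR fit, 0.0473 with library totals as the only scaling and 0.028 without untrained_TG replicate 7, and it lay between 0.0796 and 0.197 under the other planned settings that kept every library or left out untrained_WT replicates 3 and 7. The authors' deposited table gave a log2 fold change of -1.34 and an adjusted p of 0.0199. As a share of fast myosin counts, myhb went from 0.0724% ± 0.0630 to 0.0186% ± 0.0123 (exact permutation p = 0.00932, adjusted p = 0.0249). It was the 1 share called in this comparison. No share (0) was called when medians replaced means, without untrained_WT replicate 7, or without any 1 of trained_WT replicates 1, 2, 3, 5, 6 and 8, and 2 were called without untrained_WT replicate 5.

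Set against trained_WT, untrained_TG had 7 members lower, against 22.5% of all genes called lower, and 1 higher, against 19.2% called higher (41.6% in either direction). This comparison shares its transgenic libraries with the first. Here too, myhz1.3, myhz1.1 and myhz1.2 passed the filter only through wild-type libraries, so a call other than lower was hardly open to them. The log2 fold changes were -10.38 ± 0.76 for myhc4, -10.95 ± 1.25 for myha, -7.35 ± 0.93 for myhz1.3, and -1.90 ± 0.40 for myhz1.1l, and for myhz2 -4.05 (edgeR adjusted p = 0.00225). Single transgenic libraries moved some of these: without replicate 7, myhc4 was at -11.49, and without replicate 1, myhz2 was at -5.03 and myhz1.3 at -8.11. The higher member was myhb, at 1.80 ± 0.45 (edgeR adjusted p = 0.00278), with 4 of the 7 transgenic libraries above all trained ones. Without untrained_TG replicate 7 its log2 fold change was 1.15, which kept the call.

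Wild-type muscle was itself uneven in part of the array. Over untrained_WT libraries myha fell into values of 15.3 CPM in replicate 3, 20.3 in replicate 6 and 159 in replicate 4, and 739 to 2822 CPM in the other 4. Among trained_WT libraries, 6 lay between 1435 and 2303 CPM and replicate 3 held 17.8. The libraries with the lowest myha were also low in myhz2, with 18.4 CPM in untrained_WT replicate 3, 24.3 in replicate 6 and 34.0 in trained_WT replicate 3, and low in myhz1.3, with 2.64, 4.8 and 5.01 CPM. Untrained_WT replicate 7 broke this pattern, with 765 CPM of myha but the lowest CPM of myhz2 and myhz1.3 of the wild-type libraries. Its large TMM-scaled size lowers these CPM. As shares of fast myosin counts, its myhz2 (0.0522%) and myhz1.3 (0.0120%) were not the lowest. Untrained_WT replicate 3 had 0.0402% and 0.00575%, and replicate 6 had 0.0258% and 0.00511%. The 2 genes with the largest shares of counts went either way in these libraries. In trained_WT replicate 3, myhc4 and myhz1.1l were the highest of their group, and in untrained_WT replicate 3, at 35213 and 10596 CPM, they were below their group's medians. Biological coefficients of variation in the fit over all groups, untrained_TG included, were 98.7% for myha, 106% for myhz2 and 92.4% for myhz1.3. They were 63.2% for myhc4, 49.4% for myhz1.1l and 49.5% in common over all genes. Within untrained_WT the SD of CPM was 118%, 100% and 121% of the mean for myha, myhz2 and myhz1.3. It was as wide for myhz1.1 (131%) and myhz1.2 (118%). In trained_WT the same figures were 47.9%, 43.9% and 43.3%, and 48.8% and 16.2% for myhz1.1 and myhz1.2.

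**Figure D4:**
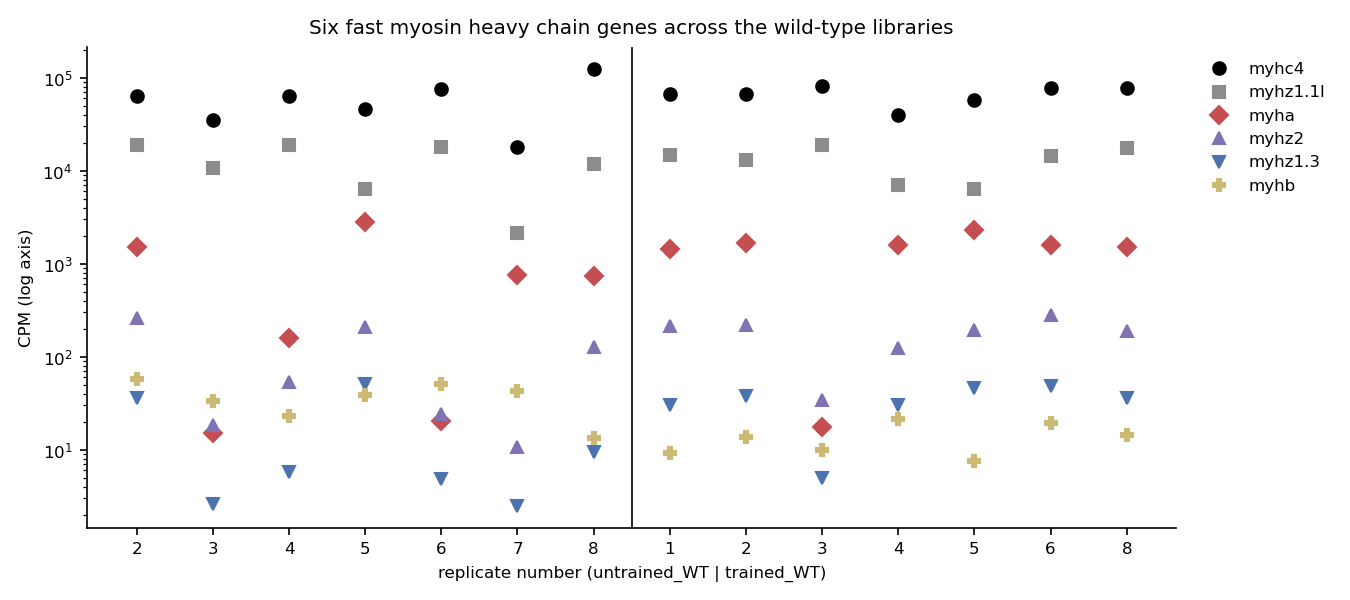
CPM of 6 fast myosin heavy chain genes in the 14 wild-type libraries, on a log axis; each column is a library, named by its replicate number, with untrained_WT to the left of the vertical line and trained_WT to the right. In untrained_WT replicates 3 and 6 and trained_WT replicate 3, myha lies between 15.3 and 20.3 CPM, and myhz2 and myhz1.3 are also low there, while myhc4 is at 35213, 75822 and 80989 CPM.

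Genes of known relation to these myosins were read from lists. Among slow and cardiac myosin heavy chains, 7 genes were tested, and in untrained_TG against untrained_WT 5 of them rose and none fell, against 18.3% of all genes called higher and 25.1% lower. Their median log2 fold change was 2.23, beside -0.13 over all genes. Those that rose were smyhc2 (998 ± 404 to 7621 ± 2964 CPM) and smyhc1 (306 ± 72.9 to 1433 ± 426 CPM), which encode slow skeletal myosins, myh7bb at 3.62 ± 0.36 log2 units, myh7ba at 2.60 ± 0.27 and vmhcl at 0.72 ± 0.27 (edgeR adjusted p at most 0.0379). The other 2 were vmhc at -1.21 ± 0.51 (adjusted p = 0.0595) and myh6 at 0.33 ± 0.87 (adjusted p = 0.783). After training, 1 of the 7 was called higher and 1 lower, against 2.25% and 0.702% of all genes. The gene smyhc1 rose by 0.83 ± 0.21 log2 units (edgeR adjusted p = 0.030) and myh7ba fell by 1.26 ± 0.26 (edgeR adjusted p = 0.008). The list's median was -0.46, beside -0.07 over all genes, and smyhc2 was not called (edgeR adjusted p = 0.496). Fast myosin made up 97.9% ± 0.914 of the counts of fast plus listed slow and cardiac myosin in untrained_WT, 97.6% ± 1.22 in trained_WT and 29.2% ± 14.0 in untrained_TG, where it ranged from 7.51 to 45.7%. With the IDs named MYH7 (1 of many), which were added after their values were seen, the transgenic mean was 21.7%.

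**Figure D5:**
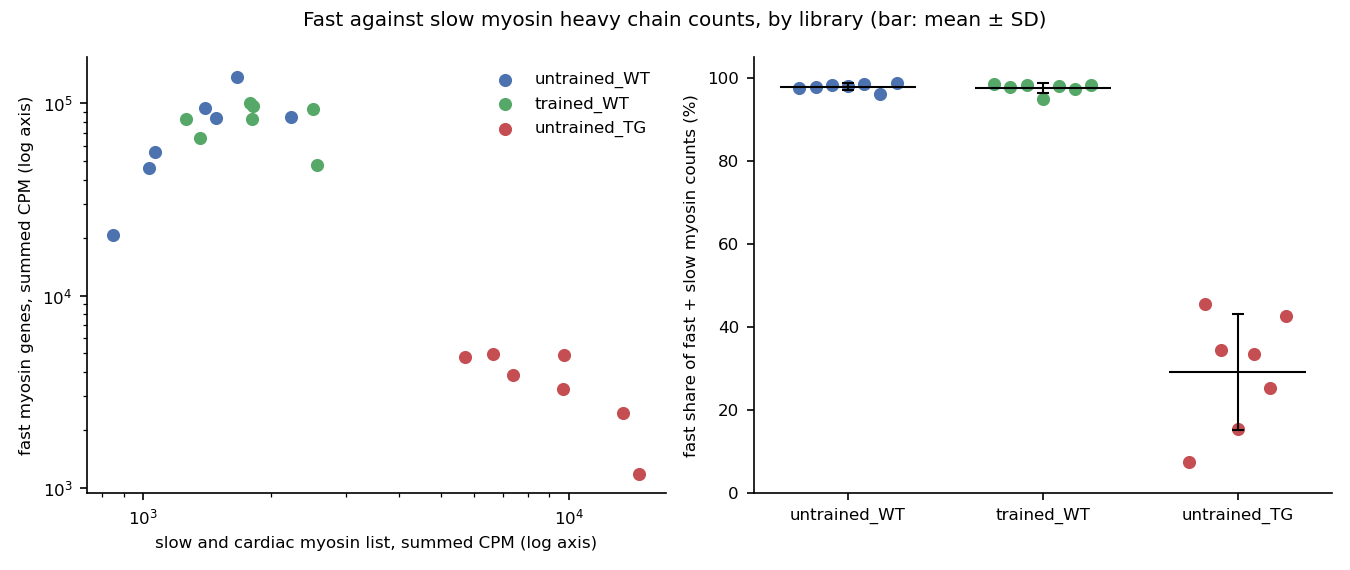
Left, summed CPM of the 8 fast myosin genes against that of the 7 slow and cardiac myosin genes, both on log axes, 1 point per library; right, the fast share of both together in percent, with the mean and SD as black bars. The transgenic libraries lie apart from all wild-type ones, at 5705 to 14630 CPM of slow and 1187 to 4963 CPM of fast myosin.

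Other fast fibre genes of the sarcomere and of calcium handling fell in 25 of 33 and rose in 2 in untrained_TG against untrained_WT, where 25.1% of all genes were called lower and 18.3% higher. The list's median was -3.52 on the log2 scale. The Z-disc genes myoz1b and myoz1a were at -6.78 ± 0.30 and -5.24 ± 0.23 log2 units, and the fast troponin I gene tnni2a.3 went from 2022 ± 820 to 8.71 ± 4.82 CPM. Another fast troponin I gene, tnni2b.1, rose by 2.60 ± 0.42 log2 units, and the fast troponin T gene tnnt3a, at 0.377 CPM beside 0.424, was not called (edgeR adjusted p = 0.896). After training, 0 of the 33 were called by edgeR, against 2.95% of all genes. Markers of slow fibres rose in 10 of 12 in untrained_TG, and their summed level was 22493 to 36880 CPM against 2882 to 6309 CPM in untrained_WT.

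Of genes for myosin folding and thick filament assembly, 15 of 22 fell and 2 rose in untrained_TG against untrained_WT, beside the same 25.1% and 18.3% of all genes, and their median was -1.09 on the log2 scale. The M-band gene myom2b fell by 4.96 ± 0.40, obscnb, which encodes the giant sarcomere protein obscurin, fell by 1.89 ± 0.18, and smyd1b and smyd1a, whose products act in myosin assembly in zebrafish, fell by 1.15 ± 0.26 and 1.04 ± 0.24. The myosin-binding protein C gene mybpc3 rose by 2.80 ± 0.24. Of fibre-type and fast-fibre regulators, 14 of 40 fell and 6 rose, with a median of -0.20. Of all genes, 25.1% were called lower and 18.3% higher, with a median of -0.13. Set against trained_WT, 19 of the 40 were lower and 5 higher, where 22.5% of all genes were called lower and 19.2% higher. Against untrained_WT, the list's calls in either direction together were close to the 43.4% of all genes. The 3 regulators of lowest p against untrained_WT were all lower, and none of the 6 that rose is named here. The nuclear factor I gene nfixb was at -2.60 ± 0.23 log2 units. The gene sox6, a repressor of slow genes in zebrafish fast fibres, was at -1.98 ± 0.21, and eya4, a cofactor gene of the Eyes absent family, at -1.91 ± 0.18. After training, 0 of 22 and 3 of 40 of these lists were called by edgeR, against 2.95% of all genes, the 3 being the myogenic factor genes myf6 (14.0 to 32.2 CPM) and myf5 (2.95 to 8.64 CPM) and vgll2b (43.5 to 100.2 CPM), a Vestigial-like cofactor gene, all higher. Non-muscle and smooth muscle myosin heavy chains went 1 higher (myh10, 0.53 ± 0.13) and 1 lower (myh14, -2.60 ± 0.59) of 6 in untrained_TG, and 1 higher after training (myh9b, 1.35 ± 0.26). The smooth muscle gene myh11a was called in neither (adjusted p = 0.0774 and 0.0886).

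Other marker lists were read against the 25.1% of all genes called lower and the 18.3% called higher (43.4% in either direction). Against untrained_WT, untrained_TG had 7 of 8 germ-line markers lower, 4 of 7 adipocyte markers higher and 1 lower, 2 of 8 white blood cell markers higher and 2 lower, 1 of 6 epidermis markers higher and 1 lower, 1 of 9 connective tissue and bone markers higher and 3 lower, 1 of 8 nerve markers higher, and 0 of 8 red blood cell and 0 of 3 cardiac markers called by edgeR. Adipocyte markers summed to 410 to 681 CPM in untrained_TG and 176 to 325 in untrained_WT. Their part in the myosin results was not tested.

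The genes whose levels followed the family most closely were sought over the 14 wild-type libraries, by Pearson's r of log2 CPM after each group's mean was removed, among 14721 other genes. For the summed family these were tnnt3b, the fast troponin T gene (r = 0.98), letm2, a mitochondrial membrane protein gene (0.97), and cdc34b, a ubiquitin-conjugating enzyme gene (0.97), beside a median r of 0.07 over all candidates. The gene closest to myhc4 was also tnnt3b (0.97), the one closest to myhz1.1l was jak1 (0.97) and the one closest to myha was suclg2 (0.91), a succinate-CoA ligase subunit gene. For the low genes the highest r was 0.94 for myhz1.2 with relt, 0.88 for myhz1.3 with gria3a, 0.88 for myhz1.1 with csnk1g2a, 0.87 for myhz2 with si:dkey-253i9.4 and 0.84 for myhb with AC024175.4. These are the highest of many and share library scaling, so they are descriptions only.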

How the data were processed

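The authors deposited raw read counts per Ensembl gene. STAR 2.4.0i, HTSeq 0.9.1, DESeq2 and GRCz10 are named in the submitters' processing notes; the annotation release and strand setting were not given in the sources used here. The libraries were stranded, poly(A)-selected and paired-end, per the labels' protocols. The authors also deposited log2 fold changes with a standard error (treated as a score) and p-values with adjusted values. Their 42 columns of normalised values were not used. Samples without a column were untrained_WT replicate 1, trained_WT replicate 7 and untrained_TG replicate 8.

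Genes were tested in R 4.3.3 with edgeR 4.0.16 (quasi-likelihood F test, TMM, filterByExpr, group as the only term, 21 libraries in 1 fit). P-values were Benjamini-Hochberg adjusted over the 18947 genes kept, and an adjusted p under 0.05 was a call. The standard error is the size of the log2 fold change divided by the square root of F. Rows that name no gene were left out; reads with no feature were 6.19% of table reads in untrained_WT and 9.18% in untrained_TG, and reads with more than 1 alignment 9.07% and 6.65%. Shares were compared by exact permutation of libraries (Python 3.11.15). The scripts were tested on simulated data.

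Members and lists were chosen with earlier results of these data known. Named genes were all members, all slow and cardiac myosins, and from each other list but the markers the 3 genes of lowest p against untrained_WT, for transgene and for training. Alternatives were DESeq2 1.42.0, limma 3.58.1 with voom, RLE scaling, library totals, leaving out mitochondrially encoded genes, no filter, only the groups compared, a replicate block, robust dispersion, libraries left out, and for shares medians, logits and other totals. No pair of libraries in a group agreed within sampling noise. Nothing states that replicates were separate animals, so a p-value reflects the spread among these libraries, which may be technical.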

Additional observations from a re-analysis of the deposited data

Results flagged for a closer look

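Each member's CPM and its share of fast myosin counts were examined in each group for a library far from the others, in 48 sets of 7 values, and 20 sets had one. Chance gives about 1 in 20 sets only where values are normally distributed. Several sets were skewed, such as myhz2 in untrained_TG with a mean of 10.8 and a median of 1.24 CPM. The number of sets cannot therefore be weighed against that rate. CPM and share of 1 gene are also not independent.

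In untrained_TG replicate 7, myhc4 was at 212 CPM and 4.27% of fast myosin counts, beside next values of 31.7 CPM and 1.9%, and myhb was at 151 CPM, beside 53.1. This is also the shallowest library. In untrained_TG replicate 1 the shares of myhz2 (3.61%, next 0.552%), myhz1.3 (0.0596%, next 0.0113%) and myhz1.1 (0.0229%, next 0.00756%) were the highest, in the library with the lowest myhz1.1l. In untrained_TG replicate 4, myhz1.2 was at 0.179 CPM and 0.00731%, from 12 counts.

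In trained_WT replicate 3, myha was lowest at 17.8 CPM (next 1435), myhz1.3 at 5.01 CPM (next 30.0) and the share of myhz2 at 0.034% (next 0.195%). In untrained_WT replicate 8, myhz1.1 was highest at 26.7 CPM and 0.0195%, and myhz1.2 at 16.3 CPM. In trained_WT replicate 6, myhz1.1 was highest at 8.7 CPM and 0.00929%. Single high shares were 86.5% for myhc4 in trained_WT replicate 5, 0.205% for myhb in untrained_WT replicate 7, 0.0452% for myhb in trained_WT replicate 4 and 0.0923% for myhz1.3 in untrained_WT replicate 5.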

How the results depend on the processing

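The 7 members lower in untrained_TG against untrained_WT, and the 8 called against trained_WT, were the same in number in all settings with 1 exception, the replicate block. The labels used here do not say whether equal replicate numbers mark paired samples. Correlations of same-numbered libraries ran from -0.329 to 0.41. None were computed for libraries of different numbers, so pairing or a shared batch was not tested. With the replicate block, myhb against trained_WT was at 1.14 (edgeR adjusted p = 0.0614), against untrained_WT at -0.035, and genes called after training were 369 in place of 559; for shares the block left 0, 0 and 0 members in the 3 comparisons, where 6 pairs allow no exact p under 0.0312. After training, 1 member (myhb) was called with DESeq2, library totals only or only the 2 groups compared (0 to 1 without 1 library), and 0 shares differed with medians (0 to 2 without 1 library). Genes called after training were 1303 with DESeq2, 1128 with library totals, 262 without untrained_WT replicates 3 and 7, and 287 to 623 without 1 library (287 without trained_WT replicate 5, 335 without untrained_WT replicate 3). Against trained_WT, 3 shares differed with medians in place of 5. Leaving out 1 library gave 3 to 4 shares against untrained_WT and 4 to 5 against trained_WT. Without mitochondrially encoded genes in the total, the family took 0.59% in untrained_TG.

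Signs turned, none of them of a called value, for myhb in untrained_TG against untrained_WT with library totals (-0.11) and without 1 library (-0.29 to 0.54), and after training for myhc4 with library totals (-0.016), without untrained_WT replicates 3 and 7 (-0.17) and without 1 library (-0.022 to 0.40), for myhz1.1l likewise (-0.066, -0.16 and -0.077 to 0.23), for myhz1.1 without 1 library (-0.95 to 0.30), and for myhz1.2 with limma (0.39) and without 1 library (-0.58 to 0.41). The cause was not tested. Library totals alone moved the median of all genes from -0.13 to -0.64 in untrained_TG against untrained_WT, with 1538 of 9677 calls higher in place of 3468 of 8232, from -0.05 to -0.25 against trained_WT (2178 of 7121 in place of 3632 of 7887), and from -0.07 to -0.36 after training (201 of 1128 in place of 426 of 559). Depth limits myhz1.3, myhz1.1 and myhz1.2 in untrained_TG, with 77, 63 and 17 counts in all.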
